A study of Mus musculus with 9 samples.

Results

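The miR-17-92 cluster was followed through 8 of its mature miRNAs, mmu-miR-17-5p, mmu-miR-17-3p, mmu-miR-18a-5p, mmu-miR-18a-3p, mmu-miR-19a-3p, mmu-miR-19b-3p, mmu-miR-20a-5p and mmu-miR-92a-3p, written here without the species prefix. They were chosen by name from the 817 mature miRNAs with reads in sRNA-seq libraries of mouse Meis1/Hoxa9 preleukemic cells. These cells derive from C57BL/6 fetal livers, were enriched for c-Kit, received Meis1 and Hoxa9 by retrovirus, and were grown with Stem Cell Factor, IL-6 and IL-3. In the 4 Tut4/7 cKO libraries both floxed genes, Tut4 and Tut7, carried a deletion by Vav-iCre, which acts in blood cells. The 5 Tut4/7 CTL libraries, labelled WT, came from cells of littermates that carried the same floxed genes without iCre. Meis1 and Hoxa9 were therefore present in both genotypes, and the genotypes differ by iCre as well as by the deletion. Per the study's methods, replicates came from separate animals or embryos, although the labels do not tie each library to one. The question was how deletion of Tut4 and Tut7 related to the level of each cluster miRNA and to the Us at its 3′ end.

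The cluster is transcribed as 1 long noncoding RNA, the Mir17hg transcript, from which Drosha and Dicer cut a series of hairpins and then the mature 5p and 3p arms. It is a MYC target that is amplified or highly expressed in several blood cancers, and its miRNAs dampen mRNAs of cell-cycle inhibitors and cell-death genes. TUT4 and TUT7 are terminal uridylyltransferases, enzymes that add U to the 3′ ends of mRNAs, miRNA precursors and mature miRNAs, and an added U is read as T in sequencing.

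The mature sequences are shown because the members fall into seed families, and the seed sets which mRNAs a miRNA can pair with. RefSeq (GRCm38.p6) held all 8. Capitals mark the seed, bases 2 to 8.
miR-17-5p: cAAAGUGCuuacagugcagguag
miR-20a-5p: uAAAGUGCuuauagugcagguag
miR-18a-5p: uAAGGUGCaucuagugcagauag
miR-19a-3p: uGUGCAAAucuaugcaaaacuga
miR-19b-3p: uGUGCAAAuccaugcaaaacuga
miR-92a-3p: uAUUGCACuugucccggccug
miR-17-3p: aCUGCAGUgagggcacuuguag
miR-18a-3p: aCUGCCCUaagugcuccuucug
miR-17-5p and miR-20a-5p share one seed, miR-19a-3p and miR-19b-3p share another, and each of the other 4 members has a seed of its own within the cluster.

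In GRCm39 with GENCODE M39, the host gene Mir17hg lies at chr14:115278211-115284162 on the plus strand. The hairpins follow each other as Mir17 (chr14:115281103-115281186), Mir18 (chr14:115281283-115281378), Mir19a (chr14:115281432-115281513), Mir20a (chr14:115281589-115281695), Mir19b-1 (chr14:115281737-115281823) and Mir92-1 (chr14:115281859-115281938). All 6 lie inside an exon of transcript ENSMUST00000134140.3 (chr14:115280703-115284159) and between 2 exons of transcript ENSMUST00000350196.1, which end at 115280389 and start at 115282732. The sequences of miR-19b-3p and miR-92a-3p also occur on the minus strand of chromosome X, in Mir19b-2 (chrX:51830860-51830943) and Mir92-2 (chrX:51830715-51830805), so reads of these 2 members cannot be assigned to 1 copy. A search of the whole genome found each mature sequence at no other place.

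The genomic bases after each mature 3′ end decide what a T-ending read can mean, because a genomic T and an added T look alike in a read. The mature sequence is in lower case, and capitals mark the 5 bases that follow it in GRCm39.
miR-92a-3p in Mir92-1, chr14:115281908-115281933: tattgcacttgtcccggcctgTTGAG
miR-92a-3p in Mir92-2, chrX:51830726-51830751, minus strand: tattgcacttgtcccggcctgAGGAA
miR-17-5p in Mir17, chr14:115281116-115281143: caaagtgcttacagtgcaggtagTGATG
miR-20a-5p in Mir20a, chr14:115281615-115281642: taaagtgcttatagtgcaggtagTGTGT
miR-17-3p in Mir17, chr14:115281153-115281179: actgcagtgagggcacttgtagCATTA
miR-18a-3p in Mir18, chr14:115281340-115281366: actgccctaagtgctccttctgGCATA
After miR-92a-3p the genome holds 2 Ts at the chromosome 14 copy and 0 at the X copy. After miR-17-5p and miR-20a-5p it holds 1 T, and after miR-17-3p and miR-18a-3p it holds 0, so any T on the latter is more than the genome writes there. A single T on miR-17-5p or miR-20a-5p, and 1 or 2 Ts on miR-92a-3p, cannot be told apart from a genomic base in a given read.

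The libraries held 209702 to 316620 miRNA reads in the Tut4/7 CTL cells and 175462 to 479342 in the Tut4/7 cKO cells. CTL replicate 2 stood apart from the other 4 controls in its tails. It held 52 reads with 3 added Ts over all miRNAs, against 454 to 715 in the other controls and 3 to 7 in the Tut4/7 cKO libraries. The tests on tails are therefore also given without it. Tut4 and Tut7 mRNA were not analysed here. Reads carried no molecular identifiers, so the limits and intervals given here cover counting error only.

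Cluster miRNAs supplied a sizeable and variable part of the small RNA. They made up 5.73, 6.91, 11.1, 8.87 and 17.4% of the miRNA reads in Tut4/7 CTL replicates 1 to 5, and 17.0, 9.23, 7.20 and 4.32% in Tut4/7 cKO replicates 1 to 4. The genotypes overlapped over nearly the whole range, with means of 10.0% ± 4.62 (SD, n = 5) and 9.45% ± 5.45 (SD, n = 4). Almost all of this was miR-92a-3p, which gave 97.7 to 99.5% of the member reads in every library. Without miR-92a-3p, the other 7 members held 0.0901 to 0.170% of the reads in controls and 0.0640 to 0.127% in Tut4/7 cKO libraries.

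miR-92a-3p, which belongs to the miR-25/92 seed family, ranked between the 1st and the 6th of all miRNAs in each library. Its share of miRNA reads was 5.64, 6.75, 10.9, 8.71 and 17.3% in the controls and 17.0, 9.10, 7.09 and 4.26% in Tut4/7 cKO libraries. Both genotypes had 1 library at about 17% and others at or below 10.9%, so the level differed more within a genotype than between the means. On the CPM scale, reads per 1000000 after TMM scaling, the means were 96805 ± 54015 (SD, n = 5) and 103859 ± 70447 (SD, n = 4).

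The other members came far below. miR-17-5p, the member that names the cluster, had 71, 155, 196, 172 and 243 reads in the controls and 50, 224, 216 and 49 in Tut4/7 cKO libraries. Its CPM ranged from 317 to 913 in controls and from 123 to 609 in Tut4/7 cKO libraries, which overlap. miR-20a-5p, which shares its seed, had 45, 116, 174, 168 and 161 reads against 45, 183, 190 and 69. The pair lay close together in each library, with a miR-17-5p to miR-20a-5p read ratio of 1.02 to 1.58 in controls and 0.710 to 1.22 in Tut4/7 cKO libraries.

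Of the miR-18a hairpin, the 3p arm was the one mostly found. miR-18a-3p had 30, 58, 66, 43 and 64 reads in controls and 20, 37, 48 and 58 in Tut4/7 cKO libraries, while miR-18a-5p had 1, 7, 5, 1 and 2 against 5, 7, 6 and 2. The 3p arm exceeded the 5p arm in all 9 libraries, by 8.29 to 43.0 times in controls and 4.0 to 29.0 times in Tut4/7 cKO libraries. Several of these ratios rest on 1 or 2 reads of the 5p arm. In the miR-17 hairpin the order was the other way in 8 of the 9 libraries: the 5p arm had 1.69 to 13.5 times the reads of miR-17-3p in controls and 0.942 to 7.20 times in Tut4/7 cKO libraries. miR-17-3p itself had 42, 50, 28, 39 and 18 reads against 16, 40, 30 and 52.

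miR-19a-3p and miR-19b-3p, which share a seed, were almost absent from these reads. miR-19a-3p had 1 read in each of 2 control libraries and in 1 Tut4/7 cKO library, and 0 in the other 6. miR-19b-3p had 4 reads over the 5 controls and 8 over the 4 Tut4/7 cKO libraries. At this depth neither could be compared between genotypes, nor could miR-18a-5p.

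By mean CPM the order was the same in both genotypes: miR-92a-3p, miR-17-5p, miR-20a-5p, miR-18a-3p, miR-17-3p, miR-18a-5p, miR-19b-3p and miR-19a-3p. The step from miR-92a-3p to miR-17-5p was 162-fold in controls and 265-fold in Tut4/7 cKO cells and held in all 9 libraries. The neighbours miR-17-5p and miR-20a-5p had ranges that overlapped across libraries (598 ± 211 and 468 ± 163 CPM in controls, SD, n = 5), but within a library miR-17-5p was the higher in 5 of 5 controls and 3 of 4 Tut4/7 cKO libraries. miR-18a-3p and miR-17-3p (187 ± 44.9 and 132 ± 56.8 CPM in controls) also overlapped, with miR-18a-3p the higher in 4 of 5 and 3 of 4. The last 3 had at most 7 reads in any library and have no firm order. Reads of different miRNAs were not corrected for ligation, and the members are 21 to 23 bases long.

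**Figure D1:**
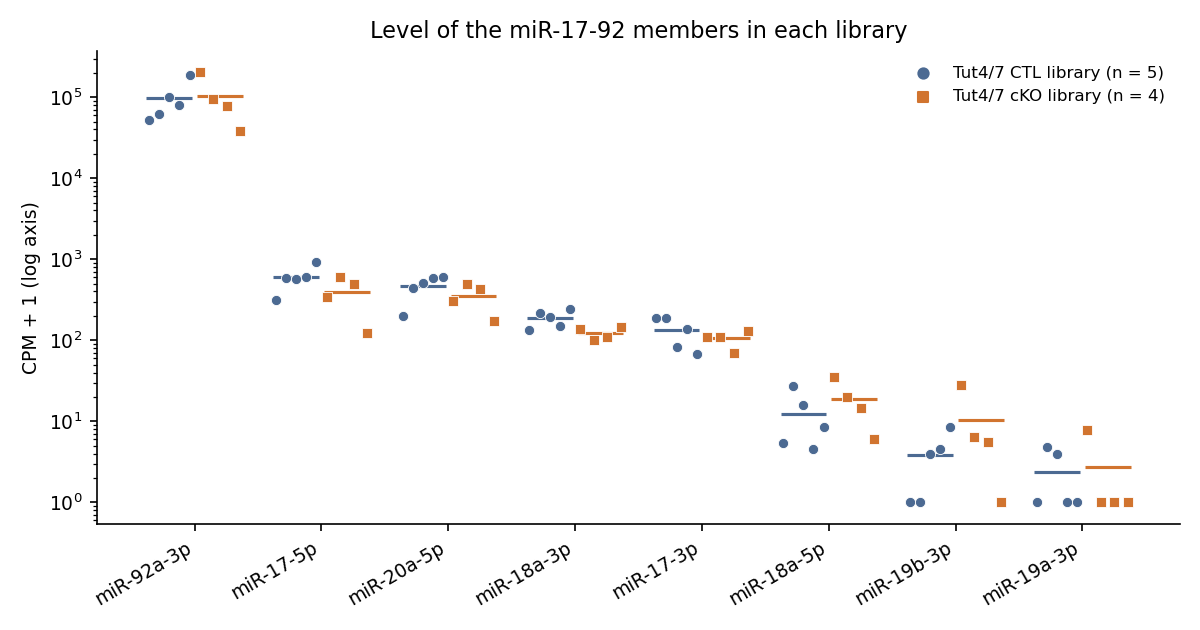
Level of each cluster member on the x axis, as CPM + 1 on a log y axis, with 1 point per library and a line at the mean of each genotype. miR-92a-3p averages 96805 CPM in controls and 103859 CPM in Tut4/7 cKO libraries, the 4 members from miR-17-5p to miR-17-3p between 67.6 and 913 CPM, and the last 3 at or below 34.1 CPM.

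No cluster miRNA passed the test for a difference in abundance between Tut4/7 cKO and CTL cells. Of the 8 members, 5 reached 10 reads in 4 or more libraries and were tested with edgeR's quasi-likelihood test, and 0 were lower and 0 higher, against 1 of 205 miRNAs lower (0.488%) and 0 higher (0.0%) over the whole table. Over the whole table, 31 miRNAs had an unadjusted p under 0.05, none of them a member. DESeq2 called 5 lower and 6 higher, again with 0 members. The log2 fold change of Tut4/7 cKO over CTL was −0.61 ± 0.47 (SE) for miR-17-5p (edgeR adjusted p = 0.618) and −0.41 ± 0.41 for miR-20a-5p (adjusted p = 0.698). It was −0.61 ± 0.29 for miR-18a-3p (edgeR adjusted p = 0.343), the closest of the members to the threshold, whose CPM of 134 to 241 in controls overlapped the 101 to 146 of Tut4/7 cKO libraries. For miR-17-3p it was −0.34 ± 0.39 (edgeR adjusted p = 0.720), and for miR-92a-3p 0.10 ± 0.48 (edgeR adjusted p = 0.930). The direction of miR-92a-3p was not stable: it was −0.45 without cKO replicate 1, the library in which it was highest. At these standard errors, differences of this size were not detectable. The median over the 5 was −0.41, beside −0.01 over all 205 miRNAs tested.

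Levels of cluster mates did not all move together over the 9 libraries. On log2(CPM + 1), Pearson's r was 0.92 for miR-17-5p with miR-20a-5p, and 0.59 and 0.56 for these 2 with miR-92a-3p. miR-17-3p, on 16 to 52 reads per library, had r of −0.37 with miR-17-5p, −0.49 with miR-20a-5p and −0.58 with miR-92a-3p. For miR-18a-3p, r was 0.33 with miR-17-5p, 0.29 with miR-20a-5p, 0.21 with miR-92a-3p and −0.02 with miR-17-3p. These are descriptions over 9 libraries that share depth and scaling. Outside the 8 listed members, the miRNAs whose level most resembled the mean of the tested members were miR-351-3p (r = 0.91), miR-92a-1-5p (0.90), miR-130b-5p (0.90), miR-219a-1-3p (0.88) and miR-351-5p (0.87). Of these, miR-92a-1-5p comes from the cluster itself, as the opposite arm of the Mir92-1 hairpin. The non-members nearest to miR-92a-3p alone were miR-5128 (0.94), miR-328-3p (0.93), let-7d-3p (0.92), miR-423-3p (0.92) and miR-671-3p (0.91).

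T-ending reads divided the members into 3 kinds: miR-92a-3p with a T on nearly every read, miR-18a-3p with a T on a mean of 27.8% of control reads, and the others with few or none. The read forms are printed as they stand in the deposited read lists. They cover the 3 members with a T class called lower in Tut4/7 cKO cells. Capitals mark Ts past the annotated 3′ end, here called added Ts. Of these, the T of miR-17-5p and the first 2 Ts of miR-92a-3p can also be genomic.
miR-92a-3p, no added T: tattgcacttgtcccggcctg
miR-92a-3p, 1 added T: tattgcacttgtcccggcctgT
miR-92a-3p, 2 added Ts: tattgcacttgtcccggcctgTT
miR-92a-3p, 3 added Ts: tattgcacttgtcccggcctgTTT
miR-18a-3p, no added T: actgccctaagtgctccttctg
miR-18a-3p, 1 added T: actgccctaagtgctccttctgT
miR-18a-3p, 2 added Ts: actgccctaagtgctccttctgTT
miR-17-5p, no added T: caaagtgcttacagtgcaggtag
miR-17-5p, 1 added T: caaagtgcttacagtgcaggtagT
The reference used for mapping ended in 3 Ts, so 3 is the longest tail that could be seen, and reads with another base added were not mapped.

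miR-18a-3p, which has no genomic T after it, lost nearly all of its T-ending reads. They were 10 of 30, 3 of 58, 19 of 66, 10 of 43 and 31 of 64 reads in Tut4/7 CTL replicates 1 to 5, or 33.3, 5.17, 28.8, 23.3 and 48.4%. In Tut4/7 cKO replicates 1 to 4 they were 0 of 20, 0 of 37, 0 of 48 and 1 of 58 reads, the last being 1.72%. The genotypes did not overlap, and the 3 zeros allow shares of up to 15.0, 8.11 and 6.25%, so the lowest control, CTL replicate 2 at 5.17%, lies within what those single libraries allow. The means were 27.8% ± 15.7 (SD, n = 5) and 0.431% ± 0.862 (SD, n = 4), and 33.5% ± 10.8 in controls without replicate 2. In reads summed over libraries the share was 45.6-fold lower (95% counting interval 7.93 to 1825, since it rests on 1 read). The fitted log2 odds changed by −5.25 ± 1.04 (SE, edgeR adjusted p = 0.000442), and by −5.75 without CTL replicate 2 (edgeR adjusted p = 1.75e-11). Only 1 read, in CTL replicate 5, carried 2 Ts and 0 carried 3, so this was a tail of a single T.

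miR-17-5p had a smaller share of T-ending reads than miR-18a-3p in controls but showed the same direction. Its single T cannot be told apart from the genomic T that follows. With more Ts than the genome holds there were 0 of 837 reads in controls and 0 of 539 in Tut4/7 cKO libraries. T-ending reads were 7.04, 1.94, 2.04, 7.56 and 5.35% of its reads in the controls and 0, 0.446, 0.463 and 0% in Tut4/7 cKO libraries, all with exactly 1 T. The genotypes did not overlap, although 0 of 50 and 0 of 49 reads allow up to 6.0 and 6.12%. The share over summed reads fell from 38 of 837 to 2 of 539, a 12.2-fold difference (95% counting interval 3.16 to 105). The fitted log2 odds changed by −3.31 ± 0.83 (SE, edgeR adjusted p = 0.00285), and by −3.54 without CTL replicate 2 (edgeR adjusted p = 1.57e-05).

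miR-20a-5p, which shares its seed and the genomic T that follows, had T on 2.22, 0, 1.72, 1.79 and 1.24% of reads in controls and on 0, 0.546, 0.526 and 0% in Tut4/7 cKO libraries. That is 9 of 664 reads against 2 of 487. The genotypes overlapped only through CTL replicate 2, where 0 of 116 reads allows up to 2.59%, and the odds did not pass the test (log2 −1.46 ± 0.89, edgeR adjusted p = 0.179). Without that library the log2 change was −1.74 (edgeR adjusted p = 0.0853). Within controls, the share was higher on miR-17-5p than on miR-20a-5p in all 5 libraries, 4.79% ± 2.68 against 1.39% ± 0.854 (SD, n = 5), as a description.

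miR-17-3p had 5 T-ending reads of 177 in controls, of which 4 were in replicate 4 and 1 in replicate 5, and 1 of 138 in Tut4/7 cKO libraries. Its log2 change of −1.45 ± 1.33 did not pass (edgeR adjusted p = 0.362) and was 0.10 without CTL replicate 4 and −1.95 without CTL replicate 2 (edgeR adjusted p = 0.145). miR-18a-5p had 0 T-ending reads of 16 and 0 of 20, which allows up to 18.8 and 15.0%. Both control reads of miR-19a-3p ended in 1 T, which the genome also holds there, and 0 reads of miR-19b-3p did.

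**Figure D2:**
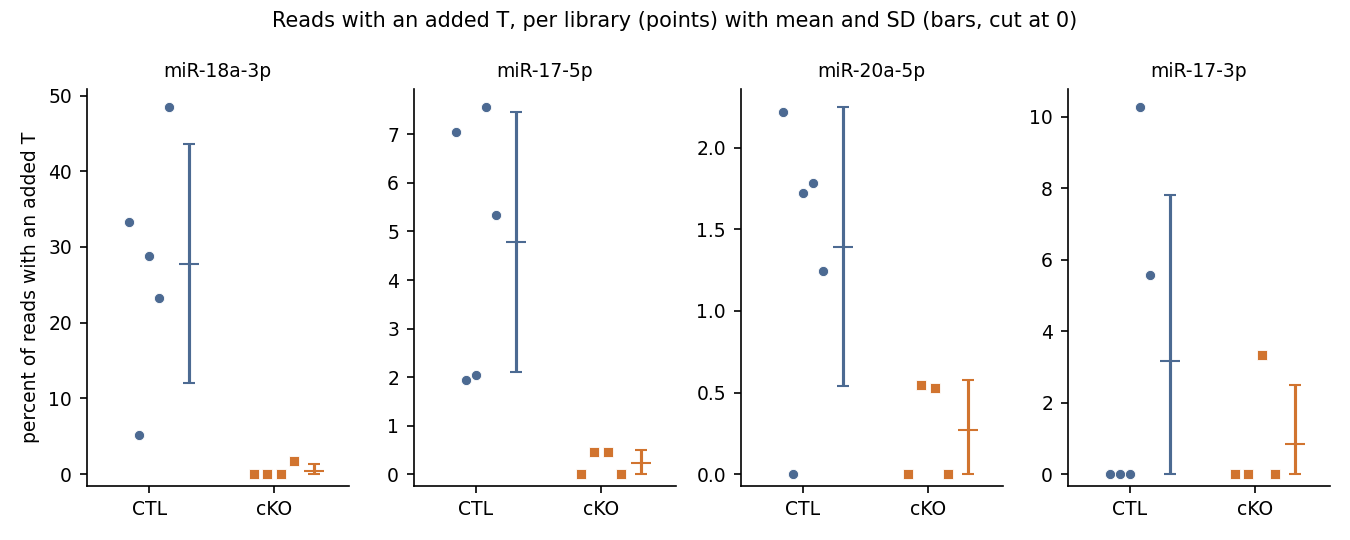
Percent of reads with an added T for 4 members, by genotype, with 1 point per library and the mean with its SD beside the points. The y axes differ between panels. miR-18a-3p and miR-17-5p are higher in every control than in any Tut4/7 cKO library, while miR-20a-5p and miR-17-3p have controls at 0.

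miR-92a-3p ended in T in both genotypes. Any added T was on 96.5, 94.99, 97.0, 96.6 and 97.5% of its reads in controls and on 95.7, 96.5, 96.3 and 95.5% in Tut4/7 cKO libraries. These overlap, and the odds did not pass the test (log2 −0.24 ± 0.42, edgeR adjusted p = 0.659), nor without CTL replicate 2 (−0.39, edgeR adjusted p = 0.237). Most of these reads had 1 T, a form that the chromosome 14 copy writes by itself. Its share was 94.1% ± 0.648 (SD, n = 5) in controls and 95.8% ± 0.484 (SD, n = 4) in Tut4/7 cKO libraries. The ranges did not overlap, 93.2 to 94.9% against 95.4 to 96.3%, yet the change of 0.52 ± 0.35 in log2 odds did not pass (edgeR adjusted p = 0.218). Without CTL replicate 2 it was 0.54 (edgeR adjusted p = 0.0672), and a quasi-binomial model gave 0.52 with adjusted p = 0.00863.

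The longer tails of miR-92a-3p fell in Tut4/7 cKO cells. Reads with 2 Ts were 2.58, 0.625, 2.0, 3.12 and 2.88% in the controls and 0.208, 0.172, 0.20 and 0.163% in Tut4/7 cKO libraries, which do not overlap, CTL replicate 2 being the lowest control. The log2 odds changed by −3.46 ± 0.66 (SE, edgeR adjusted p = 1.61e-06), and by −3.84 without CTL replicate 2 (edgeR adjusted p = 6.84e-19). Over summed reads, 3254 of 135703 became 216 of 114448, a 12.7-fold lower share (95% counting interval 11.1 to 14.6).

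Reads with 3 Ts, more than follow the sequence at either copy in the genome, numbered 29, 5, 49, 63 and 111 in the controls, or 0.245, 0.0306, 0.142, 0.273 and 0.223% of miR-92a-3p. In Tut4/7 cKO libraries they numbered 1, 0, 1 and 1, or 0.00336, 0, 0.00294 and 0.00654%, and the 0 of 35399 allows up to 0.00847%. The genotypes did not overlap even with CTL replicate 2, the lowest control. The log2 odds changed by −5.63 ± 1.24 (SE, edgeR adjusted p = 8.24e-05), and by −6.09 without that library (edgeR adjusted p = 6.15e-14). Over summed reads the share was 72.2-fold lower (95% counting interval 24.4 to 353). Of the T-ending reads of miR-92a-3p, those with 2 or 3 Ts made up 2.50% ± 1.12 (SD, n = 5) in controls and 0.197% ± 0.0222 (SD, n = 4) in Tut4/7 cKO libraries, and 2.96% ± 0.553 in controls without replicate 2.

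**Figure D3:**
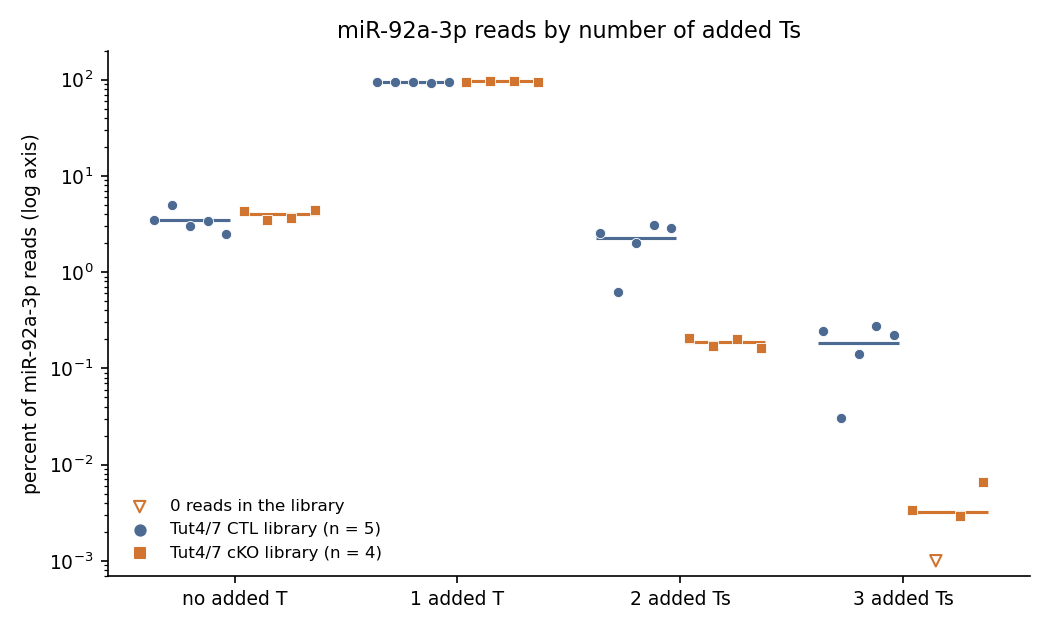
Percent of miR-92a-3p reads with 0, 1, 2 or 3 added Ts on a log y axis, with 1 point per library and a line at the mean of each genotype. The open triangle marks the Tut4/7 cKO library with 0 reads. The genotypes are close at 0 Ts and 1 T on this scale and lie apart at 2 Ts (2.24% against 0.186%) and 3 Ts (0.183% against 0.00321%).

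The calls on members stand beside those over the whole table as follows. With any added T, 5 members were tested and 2 were lower, miR-17-5p and miR-18a-3p, against 85 of 151 miRNAs (56.3%). With exactly 1 T the same 2 of 5 were lower, against 81 of 149 (54.4%). With 2 Ts and with 3 Ts miR-92a-3p was the only member tested and was lower, against 42 of 66 (63.6%) and 28 of 35 (80.0%). The last count was 9 to 16 without any 1 library other than CTL replicate 2, and 31 without that one. With more Ts than the genome holds after the mature end, 2 of 3 were lower, against 80 of 116 (69.0%): miR-92a-3p by −5.64 ± 1.03 in log2 odds (edgeR adjusted p = 4.59e-07) and miR-18a-3p by −5.24 ± 1.07 (edgeR adjusted p = 7.45e-06). Without CTL replicate 2 these were −6.09 (edgeR adjusted p = 4.87e-23) and −5.74 (edgeR adjusted p = 2.43e-12). Each share among the members rests on at most 5 miRNAs and is not set apart from the table by these counts. A miRNA could enter these tests through control libraries alone, by reads of the class in 3 or more of them. Tut4/7 cKO libraries held only 3 to 7 reads with 3 Ts over all miRNAs. The counts of lower miRNAs, above all with 3 Ts, therefore depend in part on this entry rule. miR-17-5p and miR-18a-3p could not have entered from Tut4/7 cKO libraries alone.

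The high level and near-constant T of miR-92a-3p also weighed on the share of T-ending reads over all miRNAs. This 1 member supplied 37.7 to 68.0% of all T-ending reads in controls and 53.8 to 84.2% in Tut4/7 cKO libraries. With miR-92a-3p counted, T-ending reads were 14.4, 10.8, 17.7, 16.8 and 24.8% of all miRNA reads in the controls and 19.3, 12.1, 10.1 and 7.55% in Tut4/7 cKO libraries, which overlap. Without its reads, the share was 9.53, 4.75, 7.95, 9.13 and 9.58% in controls and 3.68, 3.67, 3.50 and 3.64% in Tut4/7 cKO libraries, with no overlap, CTL replicate 2 again being the lowest control. The means were 8.19% ± 2.03 (SD, n = 5), or 9.05% ± 0.761 without that library, and 3.62% ± 0.0839 (SD, n = 4).

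**Figure D4:**
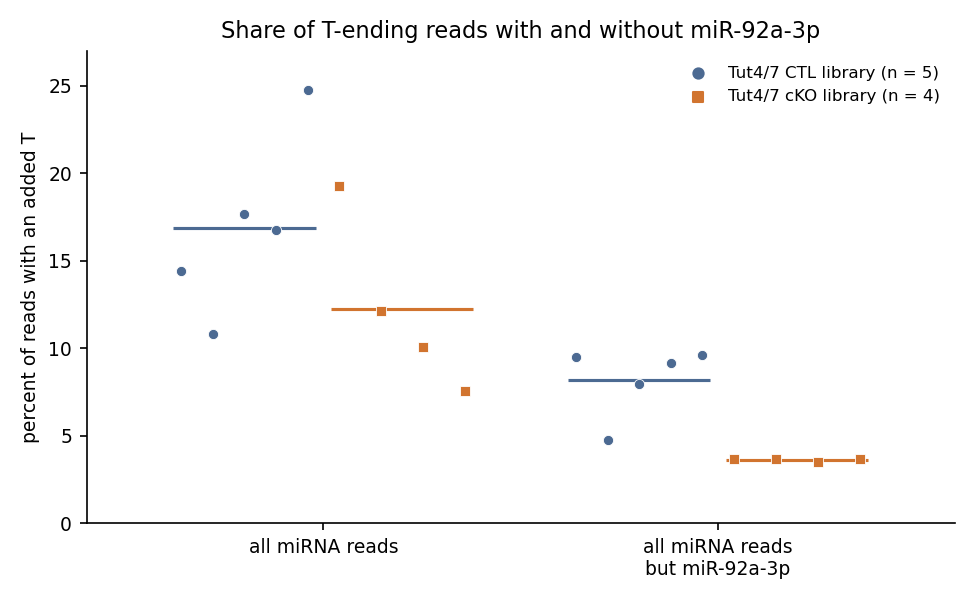
Percent of miRNA reads that end in an added T, for all miRNAs and for all but miR-92a-3p, with 1 point per library and a line at the mean of each genotype. The genotypes overlap in the first (16.9% and 12.3% on average) and separate in the second (8.19% and 3.62%).

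Tails could be seen only after the annotated 3′ base, because reads were mapped without mismatches to the mature sequence followed by Ts. A T added to a shorter end was a mismatch or read as the next mature base, so such tails were not measured. This touches miR-17-3p most, with 85.6% ± 8.10 of control reads (SD, n = 5) and 88.2% ± 6.29 of Tut4/7 cKO reads (SD, n = 4) short of the annotated end, and then miR-18a-3p, with 30.1% ± 6.73 and 42.9% ± 9.19. miR-17-5p and miR-20a-5p mostly ended at the annotated 3′ base, in 83.1% ± 3.35 and 89.8% ± 2.52 of control reads (SD, n = 5) and in 89.4% ± 4.72 and 92.9% ± 2.86 of Tut4/7 cKO reads (SD, n = 4). miR-17-3p mostly ended 1 base before it, in 65.8% ± 6.47 and 70.4% ± 12 of reads. miR-18a-3p was mixed: 42.1% ± 12 of control reads ended at the annotated base and 26.4% ± 8.0 ended 1 base before it, against 56.6% ± 9.56 and 33.9% ± 8.67 in Tut4/7 cKO libraries, and all of these overlap between genotypes. These shares count all miR-18a-3p reads, so the loss of its T-ending reads raises the other end classes by itself. Among its reads without an added T, the share short of the annotated end overlapped between genotypes. It was 34.5 to 51.1% in controls. In Tut4/7 cKO libraries the lowest value was 29.7% and all were below 51.1%. Reads of miR-18a-3p that ended 2 bases before the annotated base were also counted out of all its reads. They made up 0 to 3.45% in controls and 5.00 to 12.1% in Tut4/7 cKO libraries. These ranges do not overlap but rest on 6 and 14 reads in all. Of the 14, 7 were in cKO replicate 4. Reads of miR-20a-5p that ended 1 base before the annotated base went the other way, also without overlap. They were 0.575 to 2.59% in controls and 0 to 0.546% in Tut4/7 cKO libraries, on 9 reads and 1 read. miR-92a-3p ended at the annotated base in 2.96% ± 0.813 and 3.41% ± 0.373 of reads and short of it in 0.513% ± 0.188 and 0.579% ± 0.331.

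**Figure D5:**
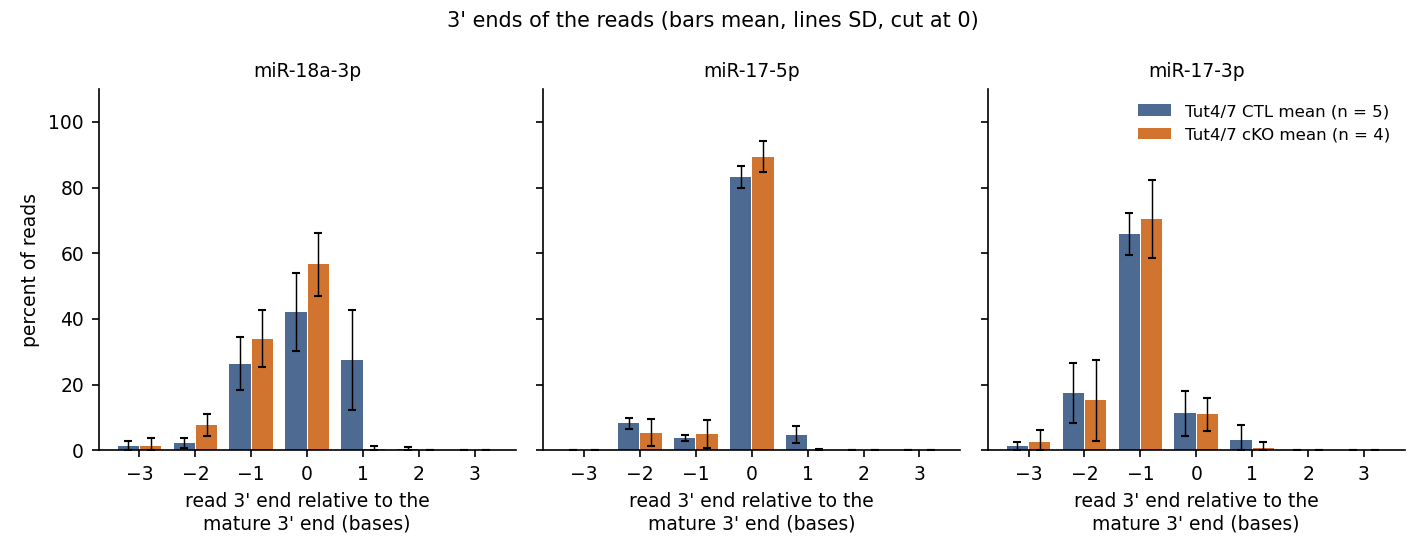
Percent of reads by distance of the read's 3′ end from the annotated mature 3′ end, in bases, for 3 members, within 3 bases of that end. Bars are the mean over 5 Tut4/7 CTL or 4 Tut4/7 cKO libraries and lines are the SD. The bar at +1 of miR-18a-3p stands at 27.5% in controls and 0.431% in Tut4/7 cKO libraries.

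The 5′ ends, which set the seed, could be seen only at or inside the mature start, because the mapping reference began there. Reads that start before it were not measured. Within that limit the 5′ ends were nearly fixed in the most abundant member. Reads of miR-92a-3p that started inside the mature sequence made up 1.13 to 1.27% in controls and 0.934 to 1.20% in Tut4/7 cKO libraries, which overlap. For miR-20a-5p and miR-18a-5p there were 0 such reads in any library. For miR-17-3p they ran from 0 to 5.13% in controls and from 0 to 7.50% in Tut4/7 cKO libraries, for miR-18a-3p up to 3.33 and 2.08%, and for miR-17-5p up to 0.645 and 2.0%, all on few reads.

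The opposite arms and the paralogs gave a frame for these values. miR-92a-1-5p, the partner of miR-92a-3p in Mir92-1, had 279 to 699 CPM in controls and 57.8 to 386 in Tut4/7 cKO libraries and did not pass the abundance test (log2 −0.67 ± 0.51, edgeR adjusted p = 0.618). It had 0 T-ending reads of 549 and 0 of 311, which allows up to 0.546 and 0.965%. miR-20a-3p had 10 T-ending reads of 13 and 10 of 10, with 1 genomic T after it, and miR-19b-1-5p had 3 reads in all. In the paralogous miR-106b-25 cluster, 5 of 6 listed miRNAs were tested for abundance and 0 were called (0.488% of the table was), while 3 of 4 tested were lower with any added T (56.3% of the table) and 4 of 4 with more Ts than the genome holds (69.0% of the table). There miR-25-3p, which shares its seed with miR-92a-3p but has no genomic T after it, had T on 0.435 to 2.76% of control reads and on 0.0777 to 0.189% of Tut4/7 cKO reads, and miR-93-5p, of the miR-17 seed family, on 3.02 to 20.2% and 0.429 to 1.71%. The paralog not called with any T was miR-25-5p, which like miR-92a-3p has a genomic T after it and ended in T on 64.7 to 69.8% of control reads and 62.5 to 72.1% of Tut4/7 cKO reads (log2 odds −0.04 ± 0.42, edgeR adjusted p = 0.964). Its reads with more Ts than the genome holds were 9 of 1454 in controls and 0 of 1245 in Tut4/7 cKO libraries (edgeR adjusted p = 0.0173). The miRNAs particular to the miR-106a-363 cluster, and miR-19a-5p, were not among the 817 miRNAs, so they could not be analysed.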

How the data were processed

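The authors prepared sRNA-seq libraries from gel-selected small RNA with the NEBNext kit and 16 PCR cycles, trimmed adapters with cutadapt (5.0), and mapped reads without mismatches with Bowtie (1.3.1) to miRBase mature sequences extended by 3 Ts. The miRBase release and genome build are not given in the sources used here. They deposited raw counts, not normalized, for each mature miRNA and for each read sequence. Versions follow the submitters' processing notes, which also name DESeq2 (1.42.1). The 2 kinds of file were checked against each other, with 0 differing cells over 817 miRNAs and 9 libraries, and all bases past mature ends were T. Of 253468 member reads, 0 fit another miRNA.

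For abundance, edgeR 4.0.16 (R 4.3.3; TMM, glmQLFit, glmQLFTest, genotype only) was applied to the 205 miRNAs that reached 10 reads in 4 or more libraries. Tails were tested in edgeR as reads of a class against the other reads of the miRNA, in a model with library terms and a class-by-genotype interaction, for miRNAs that reached 10 reads in 5 or more libraries and had reads of the class in 3 or more. Fits covered the whole table, and p values were adjusted by Benjamini-Hochberg at 0.05. Each SE given with an edgeR value is the absolute log2 change divided by the square root of its quasi-likelihood F statistic. Mature sequences were located by their letters in GRCm39 at GENCODE M39 genes, which gave 786 of 817 a genomic T run, and miRNAs with 3 or more genomic Ts were left out of the class beyond the genome. Wilson and exact intervals are at 95%. The limits given for 0 reads are neither of these, but 3 divided by the number of reads. The fits were also run on simulated counts as a check of the code. The spread of those counts was fixed and not estimated from these libraries, so error rates here were not tested. Same-numbered libraries of the 2 genotypes were not paired in the labels.

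The members and lists were chosen with earlier results of these data known. The text names all 8 members, the other arms of their hairpins, the paralogous clusters, and the 5 non-members whose level was most like the mean of the members and like miR-92a-3p (Pearson's r of log2(CPM + 1)). Alternatives were DESeq2 1.42.0, RLE and total-count scaling, other minimums of reads, entry by control libraries, reads of 1 miRNA only, a quasi-binomial model, reads of the class alone, a replicate block, and omission of each library in turn.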

Additional observations from a re-analysis of the deposited data

Results flagged for a closer look

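In each of these, 1 library of a genotype lay far from the other libraries of that genotype by Dixon's criterion. Chance alone marks about 1 in 20 groups of continuous values, and 66 sets of values were examined, which overlap. That rate does not hold for the T-ending shares of miR-17-3p and miR-18a-3p below. A Tut4/7 cKO group with 3 libraries at 0 and 1 above it is always marked. The T-ending share of miR-17-3p was 3.33% in cKO replicate 3 and 0 in the other 3 Tut4/7 cKO libraries, counted as any T, as exactly 1 T and as more Ts than the genome holds. It rests on 1 read of 30. The T-ending share of miR-18a-3p was 1.72% in cKO replicate 4 and 0 in the other 3, in the same 3 counts, and rests on 1 read of 58. The share of miR-92a-3p reads that ended short of the mature 3′ end was 1.07% in cKO replicate 4 and 0.390 to 0.465% in the others. The ratio of miR-18a-3p to miR-18a-5p reads was 29.0 in cKO replicate 4 and 4.0 to 8.0 in the others, and rests on 2 reads of the 5p arm.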

How the results depend on the processing

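The calls on miR-17-5p, miR-18a-3p and miR-92a-3p kept their direction and side of the threshold under each alternative that could be fitted for them, apart from the cases given here. Where 200 reads in 5 or more libraries were asked for, miR-17-5p and miR-18a-3p were no longer tested, so 0 members were called lower with any T or 1 T and 1 with more Ts than the genome holds, against 48 of 73, 45 of 72 and 48 of 60 miRNAs in the whole table. A quasi-binomial model called 1 miRNA higher with exactly 1 T, which was miR-92a-3p (0.52, adjusted p = 0.00863), and with reads of the class alone that value was −0.052. Reads of the class alone called 1 miRNA of the table higher with any T and 1 with exactly 1 T.

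For abundance, 1 miRNA of the table was lower and 0 higher. DESeq2 gave 5 and 6, no filter gave 8 and 10 of 817, at least 50 reads gave 0 lower of 128, and omission of 1 library gave 0 to 1 lower (0 when CTL replicate 3 or a Tut4/7 cKO library was the one left out) and 0 to 1 higher (1 without CTL replicate 2). None was a member. The log2 fold change of miR-92a-3p changed sign in 6 of 16 alternatives, among them −0.076 with total counts and −0.12 with no filter. It ran from −0.45 without cKO replicate 1 to 0.39 without CTL replicate 5. Total counts moved the median of all miRNAs from −0.01 to −0.13. For miR-17-3p, omission of 1 library gave −3.06 to 0.10 with any T, −3.06 to 0.10 with 1 T and −3.03 to 0.085 with more Ts than the genome holds, the highest being without CTL replicate 4 and the lowest without cKO replicate 3.

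Over the whole table, omission of 1 library left 9 (without cKO replicate 3) to 16 miRNAs lower with 3 Ts, against 28 with all libraries and 31 without CTL replicate 2, and 0 to 1 higher with any T and with 1 T (1 without cKO replicate 4, and for 1 T also without CTL replicate 2). With a replicate block, 0 miRNAs were lower in abundance, 4 in 3-T tails, 53 beyond the genome and 67 with any T. The block changed no call on a member: miR-17-5p with any T had −2.80 (adjusted p = 0.0261), miR-18a-3p −4.98 (4.66e-05), and miR-92a-3p −3.29 with 2 Ts (7.05e-05) and −5.60 with 3 Ts (0.000182). Same-numbered libraries correlated at −0.11, −0.20, 0.43 and 0.08, and 1 of 4 Tut4/7 cKO libraries correlated best with its own number, so the numbers were not taken as pairs.

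Depth sets the limits. The 95% interval of the T-ending share of 1 library was 0.273 to 0.670 percentage points wide for miR-92a-3p, 7.41 to 32.0 for miR-18a-3p, 2.41 to 12.4 for miR-17-5p and 6.88 to 24.8 for miR-17-3p.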
